A study of Mus musculus with 8 samples.

Results

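The protein genes of the cytosolic ribosome, with several of their paralogues, were followed through 8 testis RNA libraries. Members were taken by gene symbol alone: an Rpl or Rps stem, a number and at most a short suffix, which 87 symbols matched. Leaving out 6 pseudogenes, Rps26 and the S6 kinase-like gene Rps6kl1 left 79 of the 56748 genes in the count table, 49 of the large and 30 of the small ribosomal subunit. Adult mouse testes had been sequenced from animals labelled Ak9-/- (4 libraries) and from wild types (4 libraries). The series concerns AK9, an adenylate kinase that interconverts adenine nucleotides, in male fertility and sperm motility. The labels name no treatment, strain or exact age and no further allele.

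The cytosolic ribosome joins a small subunit, which reads the mRNA, to a large subunit, which forms the peptide bond and lets the new chain out through its exit tunnel. Most ribosomal proteins come from a single active gene that also has many silent pseudogenes, processed copies made from its mRNA. Some parent genes lie on the X chromosome, which is silenced in male meiosis, and autosomal paralogues of several of them are known to be active in male germ cells.

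Sequences show how near the paralogues are to their parents. RPL39 lines the exit tunnel and RPL10 completes the large subunit near the peptidyl transferase centre, and their parent genes are both X-linked. Coding sequences are given 5′ to 3′ from GENCODE M21 transcripts (GRCm38), with capitals at the bases that differ within a pair. Rpl39l and Rpl39 are shown whole, over 153 bases, and Rpl10l and Rpl10 over their first 180 bases.
Rpl39l: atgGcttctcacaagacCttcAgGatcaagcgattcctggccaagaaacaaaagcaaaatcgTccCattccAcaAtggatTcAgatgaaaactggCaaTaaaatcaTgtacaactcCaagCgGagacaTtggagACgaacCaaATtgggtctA
Rpl39: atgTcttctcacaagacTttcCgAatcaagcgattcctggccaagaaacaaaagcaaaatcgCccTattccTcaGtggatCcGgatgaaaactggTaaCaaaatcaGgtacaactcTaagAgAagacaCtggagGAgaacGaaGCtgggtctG
Rpl10l: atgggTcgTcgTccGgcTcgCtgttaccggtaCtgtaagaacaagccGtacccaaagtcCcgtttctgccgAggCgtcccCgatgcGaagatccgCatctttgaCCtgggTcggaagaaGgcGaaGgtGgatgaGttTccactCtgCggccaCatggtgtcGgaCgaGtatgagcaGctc
Rpl10: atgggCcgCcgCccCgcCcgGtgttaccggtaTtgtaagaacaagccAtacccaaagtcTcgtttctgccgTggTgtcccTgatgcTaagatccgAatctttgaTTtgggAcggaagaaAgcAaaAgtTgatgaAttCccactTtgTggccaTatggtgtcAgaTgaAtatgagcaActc
Rpl39l and Rpl39 shared 85.0% of their bases, with 23 differences. The third base of a codon held 16 of these, the first 5 and the second 2. Rpl10l and Rpl10 shared 84.7% over 642 bases, and 89 of their 98 differences lay at the third base. Rpl10l is annotated with 1 exon and its parent with 6, the form of a retrogene, whereas Rpl39l and Rpl39 both have 3. Rpl36al, another gene with 1 exon and an X-linked parent, shared 87.7% with Rpl36a, with 35 of 39 differences at the third base. Rpl3l shared 74.4% with Rpl3 and Rpl22l1 shared 70.2% with Rpl22, so reads of these paralogues and parents differ at many positions.

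Library totals ran from 18062780 to 24415587 counts. Ak9 itself was at 69.3, 116, 101 and 40.6 CPM (library-size-scaled counts, with TMM normalization) across labelled knockouts 1 to 4, against 108, 115, 122 and 107 CPM across wild types 1 to 4. Labelled knockouts 2 and 3 were therefore close to or within the wild-type range, and the libraries are called labelled knockouts throughout. The edgeR log2 fold change of Ak9 was -0.47 (standard error 0.25) and did not pass. These counts do not test the genotype itself. Spermatid and Sertoli cell markers also differed among the labelled knockouts. The mean log2 CPM of 16 elongating spermatid markers (such as Prm2) lay 0.36, 0.09, -0.82 and 0.47 from the wild-type mean in labelled knockouts 1 to 4, and that of 20 Sertoli cell markers -0.29, -0.05, 0.43 and -0.44. Summed levels of the 16 spermatid markers spanned 10200 to 24710 CPM in labelled knockouts and 16230 to 19940 CPM in wild types, and those of the Sertoli markers 2001 to 3549 and 2578 to 2913 CPM. Leydig cell markers had log2 fold changes below 0 for 13 of 14, with a median of -0.31 and 0 called. Of all genes, 52.9% lay above 0 and 0.0183% were called. Mean deviations of the Leydig markers were -0.42, -0.46, -0.08 and -0.83 across labelled knockouts. Their summed levels were 1267 to 2453 CPM against 2263 to 2579 CPM in wild types. Other lists also leaned: 18 of 18 round spermatid, 15 of 16 elongating spermatid and 12 of 14 peritubular and stromal markers lay above 0. Of 15 spermatogonia markers tested, 13 lay below 0. Sertoli markers split 8 above to 12 below, and spermatocyte markers 13 to 7. The 11 epididymis markers summed to 4.49 to 223 CPM in labelled knockouts and 5.50 to 7.91 CPM in wild types, and 1 of them passed the low-count filter. None of the elongating spermatid, Sertoli, Leydig and epididymis markers was at 0 in all libraries. The part of cell makeup in the members' values was not tested.

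No ribosomal protein gene passed edgeR's quasi-likelihood test between labelled knockout and wild type. All 79 entered the test, 0 were called at an adjusted p under 0.05, and the background was 0.0183% of 21805 genes. DESeq2 (0 members, background 0.14%) and limma-voom (0 members, background 0.0183%) also called none. At an unadjusted edgeR p under 0.05 there were 3 members (3.80%), against 3.04% of all genes. Rpl21 and Rpl15 were on the higher side (2.53%, background 1.25%) and Rps3a1 on the lower side (1.27%, background 1.79%). Most members differed little: 52 had a log2 fold change under 0.1 in size and 70 under 0.2, with a median standard error (SE) of 0.13. The extremes were -0.57 for Rps3a1 and 0.44 for Rpl21, drawn in the plot of fold change against level.

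**Figure D1:**
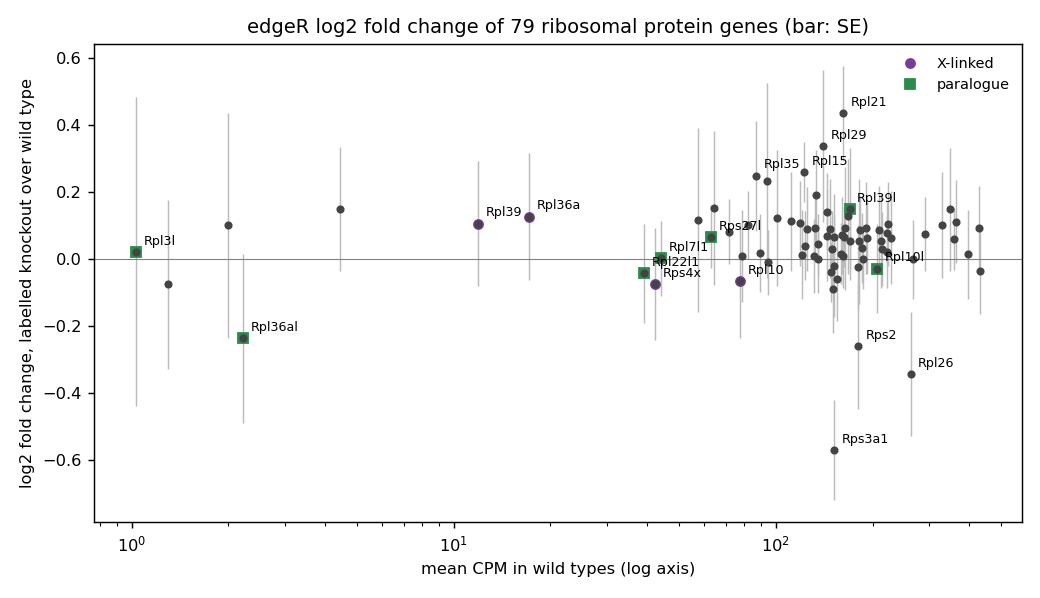
Each point is a ribosomal protein gene, placed by its mean CPM in the 4 wild types (log axis) and its edgeR log2 fold change, labelled knockout over wild type, with the SE as a bar; purple points are X-linked and green squares are paralogues. Most points lie within 0.2 of 0, Rps3a1 lies lowest at -0.57 and Rpl21 highest at 0.44, and 0 of the 79 passed the adjusted threshold.

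Fold changes above 0 were seen in 61 of the 79 members (77.2%), against 52.9% of all genes tested. The median was 0.06 over the members and 0.01 over all genes. Large-subunit members had a median of 0.07 and small-subunit members one of 0.06. That lean rested on labelled knockout 1. Without it, 29 members lay above 0 and 50 below, and the median was -0.02.

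The members' share of each library also varied within the groups. They held 1.35%, 1.29%, 1.24% and 1.14% of the counts across labelled knockouts 1 to 4, and 1.31%, 1.23%, 1.18% and 1.27% across wild types 1 to 4. The group means were 1.25% ± 0.0902 and 1.25% ± 0.0561 (SD, n = 4 each), and the groups overlapped. In whole testis, fewer cells of a type and less RNA per cell cannot be told apart in such values. In labelled knockout 1, 71 members lay above their own wild-type mean, in labelled knockout 2 58, in labelled knockout 3 27 and in labelled knockout 4 44. Among wild types this number ran from 12 in wild type 3 to 68 in wild type 4. The share is of raw totals, without TMM scaling, and ranked the labelled knockouts differently from this number. Labelled knockout 4 had the lowest share of them, and labelled knockout 3 the fewest members above the wild-type mean. The SD of log2 CPM was larger among labelled knockouts than among wild types for 68 of the 79 members, with medians of 0.23 and 0.08. Over all genes tested, which include many with low counts, these medians were 0.34 and 0.14. The larger spread among labelled knockouts was thus not particular to the members, and its count over all genes was not taken. A single library lay apart from the other 3 of its group (Dixon's 95% criterion) for 1 member among labelled knockouts, Rps6, and for 0 members among wild types. The background was 7.35% and 5.13% of all genes.

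**Figure D2:**
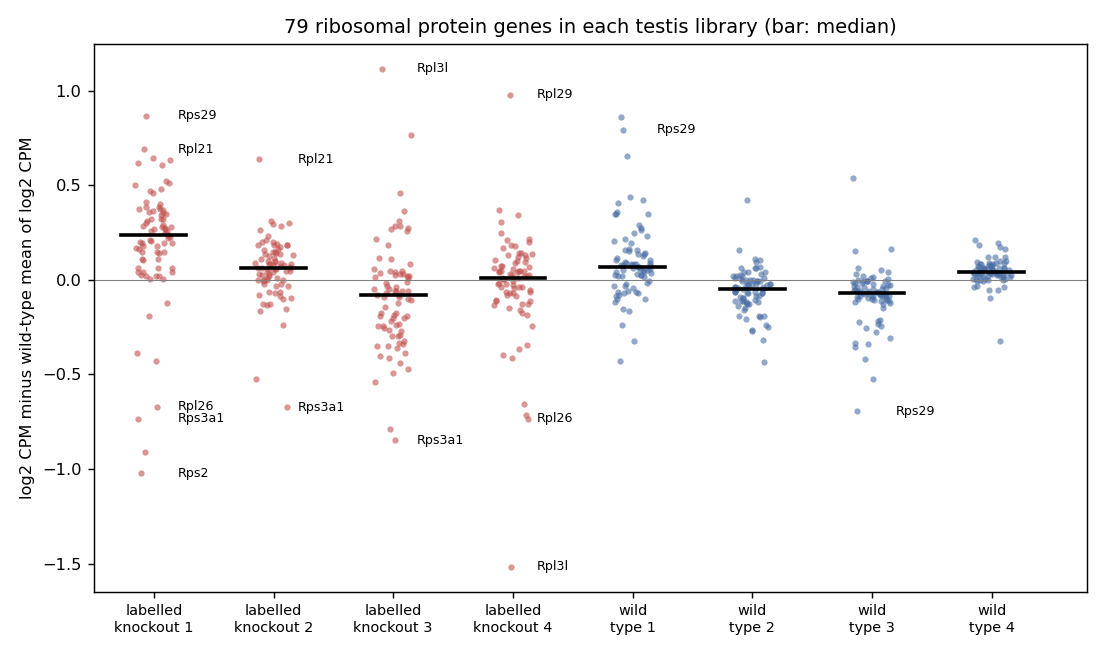
Each point is 1 of the 79 members, drawn in each library as its log2 CPM minus the mean log2 CPM of the 4 wild types; black bars are medians. The median is highest in labelled knockout 1 (0.24) and lowest in labelled knockout 3 (-0.08), and single genes such as Rps2, Rps3a1 and Rpl26 stand below the rest in particular labelled knockouts.

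Levels of different genes are compared per kilobase (kb) of transcript. In wild types the highest members were Rpl41, which encodes a very short basic peptide, at 682 ± 129.9 CPM per kb, and Rpl13 at 549 ± 29.0 (SD, n = 4). Rps27 at 527 ± 123, Rps14 at 505 ± 21.3 and Rps7 at 453 ± 15.9 CPM per kb came next. Neighbours in this order overlapped within the SD, except Rps14 and Rps7, whose values in the 4 wild types did not overlap. The order depends on the transcript length taken: with merged exons, or with coding length, 2 of these 5 stayed among the 5 highest. The median member stood at 172 CPM per kb. The edgeR log2 fold changes of these 5 were 0.15 for Rpl41, 0.09 for Rpl13, 0.05 for Rps27, 0.01 for Rps14 and -0.04 for Rps7.

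At the other end, Rpl3l was lowest at 0.752 ± 0.226 CPM per kb. Rpl36al at 1.74 ± 0.176 and Rpl24 at 1.91 ± 0.370 followed, and these last 2 did not differ beyond their SD. The next were Rps10 at 2.79 ± 0.677 and Rpl13a at 4.24 ± 0.620 CPM per kb, ahead of a gap to 17.0 for Rpl7l1. Rpl36al, Rpl24, Rps10 and Rpl13a each share exon sequence on the same strand with an annotated gene other than a small RNA gene. The shared part was 47.0% of the exon bases of Rpl24 (with Gm28037), 20.6% of Rps10 (with RPS10-NUDT3), 35.4% of Rpl13a (with Gm45713 and 2 small RNA genes together) and 24.5% of Rpl36al (with Gm49383). Gm28037, RPS10-NUDT3, Gm45713 and Gm49383 had 0 counts in the 8 libraries, except for a single count of Gm49383 in wild type 3. The low levels of these 4 members are thus uncertain, since how reads that match 2 genes were handled was not given in the sources used here. Another member, Rpl19, shares 11.4% with Gm11629 and Gm27597 together and stood at 217 CPM per kb.

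The paralogues were set against their parents to see whether their balance differed between the groups. Rpl10l (ENSMUSG00000060499) was at 259, 194, 175 and 183 CPM across labelled knockouts 1 to 4, against 224, 186, 205 and 213 CPM across wild types 1 to 4. Its parent Rpl10 was at 78.7, 78.1, 92.8 and 47.3 CPM and at 75.4, 73.9, 77.3 and 84.3 CPM. Labelled knockout 4 had the least Rpl10 and labelled knockout 3 the most, while the groups overlapped for both genes. On the log2 scale Rpl10l exceeded Rpl10 by 1.72, 1.32, 0.92 and 1.95 across labelled knockouts 1 to 4, against 1.57, 1.33, 1.41 and 1.34 across wild types. The means were 1.48 ± 0.45 and 1.41 ± 0.11 (SD, n = 4), a difference of 0.06 (exact permutation p = 0.886, two-sided). Per kb, wild types held 2.22 times as much Rpl10l as Rpl10, a log2 ratio of 1.15 that was 2.42 with merged exons as the length.

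Rpl39l (ENSMUSG00000039209) stood at 241, 173, 121 and 220 CPM across labelled knockouts and at 182, 158, 161 and 181 CPM in wild types. Rpl39 was far lower, at 14.9, 10.9, 14.3 and 11.1 CPM and at 15.8, 10.7, 9.22 and 11.9 CPM. Wild types held 11.0 times as much Rpl39l as Rpl39 per kb, a log2 ratio of 3.46 that was 4.65 with merged exons. The log2 ratios of CPM were 4.02, 3.99, 3.08 and 4.30 in labelled knockouts and 3.52, 3.88, 4.12 and 3.92 in wild types. Labelled knockouts 3 and 4 bracketed all other libraries, and the group means differed by -0.01 (exact permutation p = 0.971, two-sided).  The edgeR log2 fold changes were -0.03 for Rpl10l, -0.06 for Rpl10, 0.15 for Rpl39l and 0.11 for Rpl39, with SEs of 0.13 to 0.19. That of Rpl39l was 0.0012 without labelled knockout 1, 0.065 without labelled knockout 4 and 0.30 without labelled knockout 3.

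Rpl3l, the paralogue known from striated muscle, was very low beside Rpl3, which forms part of the peptidyl transferase centre. It stood at 0.766, 0.917, 2.17 and 0.350 CPM in labelled knockouts, the last from 6 counts, and at 0.802, 1.08, 1.46 and 0.800 CPM in wild types. Per kb this was 0.00671 times the level of Rpl3, which was at 141 ± 25.8 and 150 ± 6.71 CPM. The range of Rpl3l among labelled knockouts, 2.53 on the log2 scale, was the widest of all members, ahead of Rps10 (1.65) and Rpl29 (1.32). Rpl22l1 was at 40.6, 44.2, 28.0 and 39.2 CPM in labelled knockouts and at 33.0, 41.9, 43.5 and 37.9 CPM in wild types. Its parent Rpl22, an RNA-binding protein of the large subunit known to limit Rpl22l1, was at 75.7 ± 6.77 and 71.6 ± 3.61 CPM. The log2 ratio of that pair averaged -1.01 ± 0.26 and -0.88 ± 0.14, overlapping between groups. Which of the 2 is higher per kb depends on the transcript length: Rpl22l1 was 2.02 times as high with the coding transcripts, and lower than Rpl22 with merged exons or coding length alone. The log2 fold changes were 0.02 for Rpl3l (SE 0.46), -0.09 for Rpl3, -0.04 for Rpl22l1 and 0.08 for Rpl22.

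Other members whose names mark them as paralogues also had overlapping groups. Rpl36al averaged -3.31 ± 0.75 on the log2 scale against its X-linked parent Rpl36a in labelled knockouts, and -2.92 ± 0.38 in wild types. Rps27l, a p53-responsive gene, stood at -1.49 ± 0.19 and -1.50 ± 0.32 against Rps27, and Rpl7l1 at -2.59 ± 0.41 and -2.59 ± 0.09 against Rpl7. The Rpl7 transcript used is coding over all its 838 bases, with no untranslated part, so its length is a lower limit. Rps4l, annotated as a transcribed pseudogene and so not among the 79, was measured as a partner of X-linked Rps4x and averaged 1.14 ± 0.49 and 0.91 ± 0.13. Across the 8 pairs the exact two-sided permutation p ran from 0.400 to 1, all 1 after Benjamini-Hochberg adjustment, where 4 against 4 libraries allow a smallest p of 0.0286. The log2 fold changes of Rpl36al (-0.24), Rpl36a (0.13), Rps27l (0.07), Rpl7l1 (0.0022), Rpl7 (-0.0011) and Rps4x (-0.07) also did not pass.

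**Figure D3:**
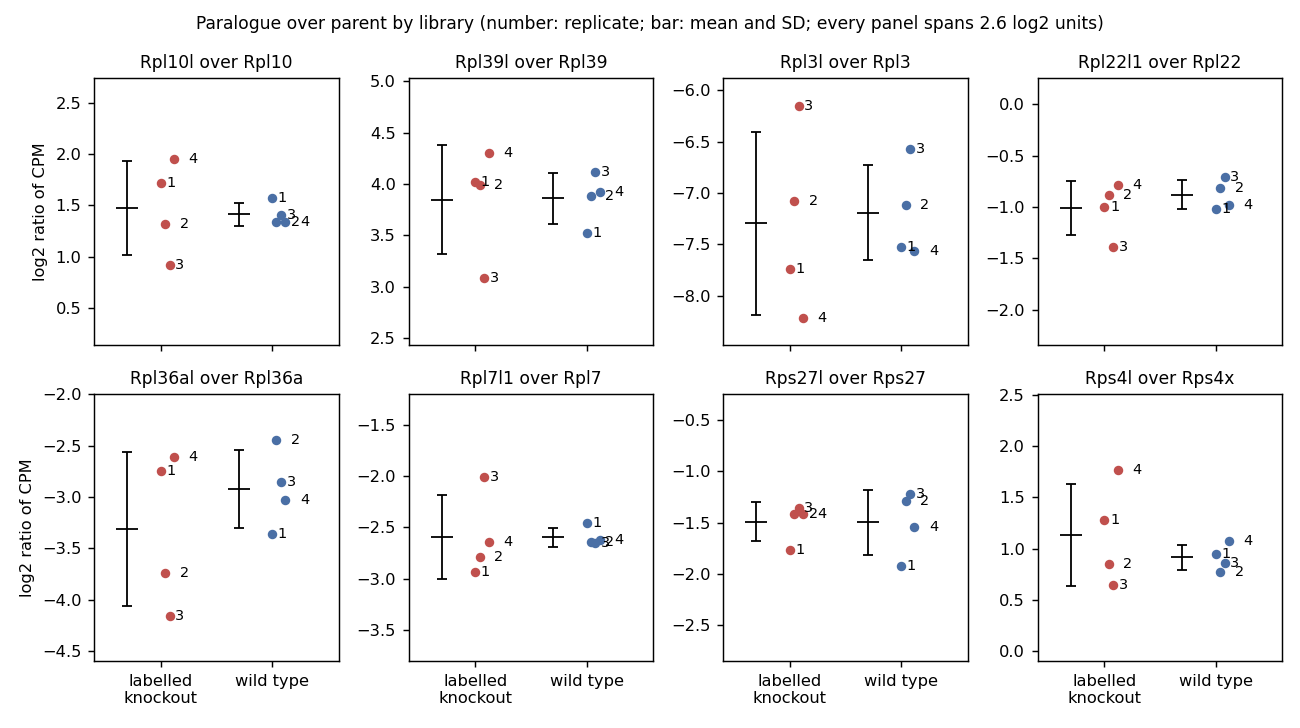
Each panel gives the log2 ratio of CPM, paralogue over parent, in every library (points, numbered by replicate) with the mean and SD beside them; panels have different ranges but the same span of 2.6 log2 units. Labelled knockouts and wild types overlap in all 8 panels, and labelled knockouts 3 and 4 are the extremes of their group in 6 panels: the 4 with an X-linked parent, Rpl22l1 over Rpl22 and, in the reverse order, Rpl3l over Rpl3.

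In the 4 pairs with an X-linked parent (Rpl10, Rpl39, Rpl36a and Rps4x), labelled knockout 3 had the lowest ratio of the 4 labelled knockouts and labelled knockout 4 the highest. Rpl22l1 to Rpl22, a pair with autosomal genes, had the same order (-1.38 and -0.78), and Rpl3l to Rpl3 had the reverse (-6.15 and -8.22), so the order was not limited to X-linked parents. Of these parents, Rpl10, Rpl36a and Rps4x were themselves highest in labelled knockout 3 and lowest in labelled knockout 4. Rps4x was at 38.9, 42.6, 52.4 and 26.9 CPM and Rpl36a at 17.4, 20.8, 23.2 and 13.4 CPM across labelled knockouts 1 to 4. Over the 4 X-linked members the median against the wild-type mean was 0.03, 0.01, 0.30 and -0.50 on the log2 scale. The same order held in 4 of the 75 autosomal members (5.33%), in 259 of 821 X-linked genes (31.5%) and in 16.5% of autosomal genes. Elongating spermatid markers were lowest and Sertoli markers highest in labelled knockout 3, by -0.82 and 0.43.

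Among members on the higher side, Rpl21 was at 262, 253, 196 and 167 CPM across labelled knockouts 1 to 4, against 162, 166, 156 and 166 CPM across wild types. Every labelled knockout lay above every wild type, but labelled knockout 4 by a narrow margin (log2 fold change 0.44, SE 0.14, edgeR adjusted p = 1.00). Rpl15 was at 148, 142, 142 and 155 CPM against 131, 122, 114 and 124 CPM, again with no overlap (0.26, SE 0.09, edgeR adjusted p = 1.00). These are the 2 members whose labelled knockouts all exceeded the wild types (2.53%), against 0.981% of all genes. Both encode proteins of the large subunit. Rpl29 reached 276 CPM in labelled knockout 4 and was at 175, 149 and 111 CPM in the others, against 161, 129, 137 and 137 CPM in wild types. Its log2 fold change of 0.34 was 0.04 without labelled knockout 4. Rpl35, at the mouth of the exit tunnel, had a log2 fold change of 0.25, and Rps6, the substrate of the S6 kinases, one of 0.19, both with overlapping groups. Without labelled knockout 1 these were 0.10 and 0.088. Without wild type 1 that of Rps6 was 0.30, and without wild type 3 it was 0.12.

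On the lower side Rps3a1 (ENSMUSG00000028081), a small-subunit protein near the mRNA exit, stood at 91.2, 95.3, 84.3 and 139 CPM across labelled knockouts 1 to 4. Wild types were at 140, 162, 152 and 153 CPM, so that labelled knockout 4 sat just under the lowest wild type. It was the member whose labelled knockouts all lay below the wild types (1 of 79, 1.27%), against 1.32% of all genes. The log2 fold change was -0.57 (SE 0.15), with an edgeR adjusted p of 0.947 and a DESeq2 adjusted p of 0.264. Without labelled knockout 4 it was -0.75 and passed (edgeR adjusted p = 0.0179). Rpl26, which lies at the exit tunnel and binds p53 mRNA, was at 165, 302, 205 and 158 CPM against 268, 250, 258 and 277 CPM (-0.34, SE 0.18, edgeR adjusted p = 1.00). Rps2, a protein of the mRNA entry channel, was at 88.9 CPM in labelled knockout 1 and at 165, 184 and 165 CPM in the others, against 189, 172, 173 and 188 CPM. Its log2 fold change of -0.26 was -0.08 without labelled knockout 1. Rpl24 and Rps10 had log2 fold changes of -0.08 and 0.10.

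Rps3a1, Rpl26 and Rps2 were lowest in libraries where an annotated pseudogene copy had counts. At 95% identity over 80% of the coding sequence, 70 of the 79 members had a near-identical copy. The median over all 79 was 5 copies of any annotated type. Rpl21 had the most, 57, of which 56 were pseudogenes. The stretches below are 90 bases of Rps3a1 and Rpl26 beside the copy that counted most, from GENCODE M21, with capitals at the bases that differ. They show how few positions tell a member and its copy apart.
Rps3a1: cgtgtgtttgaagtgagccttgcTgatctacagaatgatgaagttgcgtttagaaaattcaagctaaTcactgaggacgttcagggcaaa
Rps3a3: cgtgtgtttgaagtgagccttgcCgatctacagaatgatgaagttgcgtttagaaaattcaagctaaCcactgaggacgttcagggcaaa
Rpl26: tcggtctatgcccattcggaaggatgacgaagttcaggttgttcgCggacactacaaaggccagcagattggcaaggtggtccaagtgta
Gm15772: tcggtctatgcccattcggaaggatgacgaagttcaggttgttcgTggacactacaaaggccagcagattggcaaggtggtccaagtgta
Over the whole aligned coding sequence, Rps3a3 differed from Rps3a1 at 8 of 791 bases and Gm15772 from Rpl26 at 2 of 435. Rps3a3 had 792, 692 and 575 counts in labelled knockouts 1 to 3 and 7 in labelled knockout 4, and 3 to 9 counts in wild types. Rps3a2, another copy, was at 12.3, 15.9, 11.9 and 1.28 CPM and at 2.95 to 3.52 CPM in wild types. Labelled knockouts 1 to 3, low in Rps3a1, were thus the 3 libraries high in both copies. Gm15772 was at 85.1 and 74.2 CPM in labelled knockouts 1 and 4, the lowest libraries for Rpl26, and at 2.15 CPM or less in the other 6, including labelled knockout 3, where Rpl26 was also under every wild type. Rps2-ps10 was at 57.4 CPM in labelled knockout 1, the lowest library for Rps2, and at 0.543 CPM or less elsewhere.

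Adding the pseudogene copies to each member's counts brought these 3 members closer to the wild types, in an alternative chosen after the data were seen. Rps3a1 with 6 copies summed to 140, 145, 125 and 141 CPM in labelled knockouts and to 144, 166, 157 and 158 CPM in wild types, and its log2 fold change went from -0.57 to -0.19. For Rpl26 the change went from -0.34 to -0.10, and for Rps2 from -0.26 to -0.14. Reads counted for these members and for their copies cannot be separated with the counts alone, so the 3 lower values are uncertain. With copies added the values on the higher side were 0.42 for Rpl21, 0.21 for Rpl15 and 0.28 for Rpl29. Rps10, one of the lowest members, went from 0.10 to 0.26. Gm10020, a copy of Rpl15, was at 5.91 CPM in labelled knockout 1, at 0.0483 to 0.247 CPM in labelled knockouts 2 to 4 and at 3.40 to 4.80 CPM in wild types, beside group means of 147 and 123 CPM for Rpl15 itself. After the copies were added, 0 members were called.

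**Figure D4:**
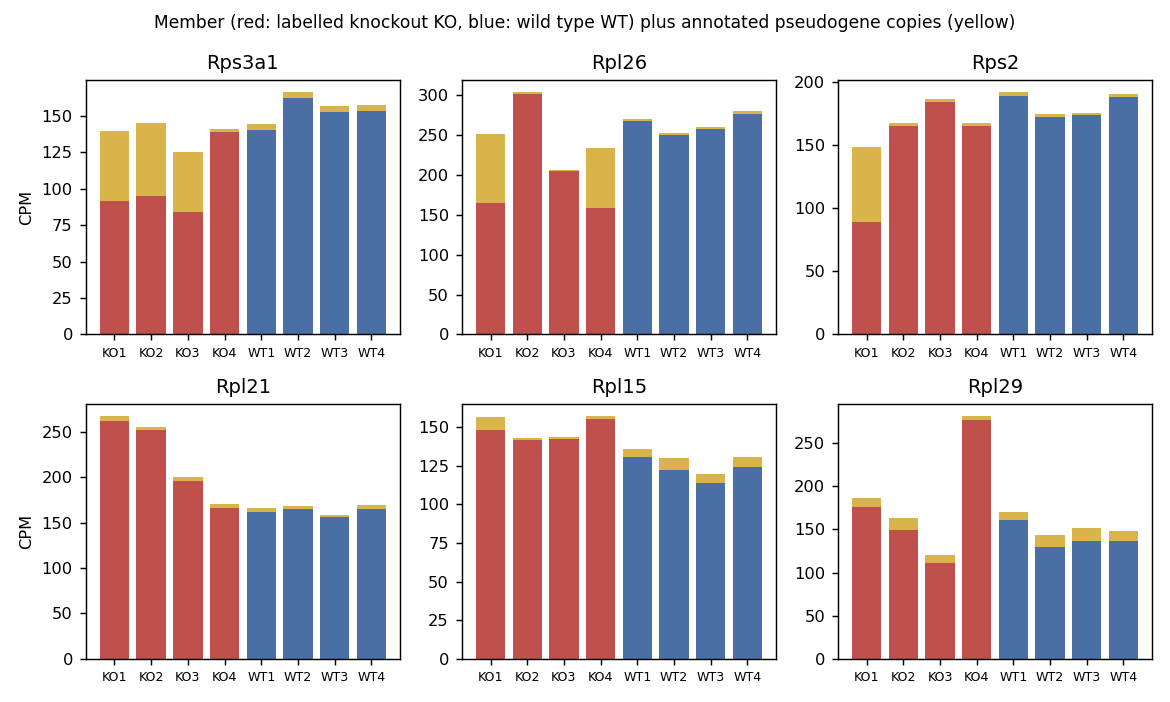
Stacked bars give, for 6 members and each library (KO, labelled knockout; WT, wild type), the CPM of the member in red or blue and of its annotated pseudogene copies in yellow, from 0. Copies add 48.5, 50.1 and 40.7 CPM to Rps3a1 in labelled knockouts 1 to 3, 86.3 and 75.5 CPM to Rpl26 in labelled knockouts 1 and 4, and 59.3 CPM to Rps2 in labelled knockout 1, while those of Rpl21, Rpl15 and Rpl29 stay under 16 CPM.

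Within a group, libraries differed in how the members' values went with the length of the coding sequence. The 10 members with under 300 coding bases, among them Rps29, Rps28, Rpl38 and Rps27, had a median of 0.51 above the wild-type mean (log2) in labelled knockout 1 and 0.41 in wild type 1. In wild type 3 it was -0.34, in wild type 2 -0.19 and in labelled knockout 3 -0.16. Rps29 was at 159 and 151 CPM in labelled knockout 1 and wild type 1, against 54.0 to 104 CPM in the other 6 libraries. The 25 members with 600 or more coding bases had medians between -0.11 and 0.11 in every library. Across members, Spearman's rho between coding length and the deviation was -0.57, -0.199, 0.395 and -0.432 in labelled knockouts 1 to 4. In wild types 1 to 4 it was -0.51, 0.46, 0.49 and -0.311. Deviations of the wild types are from their own mean, so they offset each other by construction. The rho values are descriptions over genes of 1 library, which share its depth. Over 15925 other genes rho was -0.17, -0.136, 0.113 and -0.047 in labelled knockouts 1 to 4. For wild types 1 to 4 it was -0.03, 0.10, 0.04 and -0.146. Since a wild type and a labelled knockout both stood high, short members overlapped between the groups, and the part of transcript length in the members' median was not tested.

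**Figure D5:**
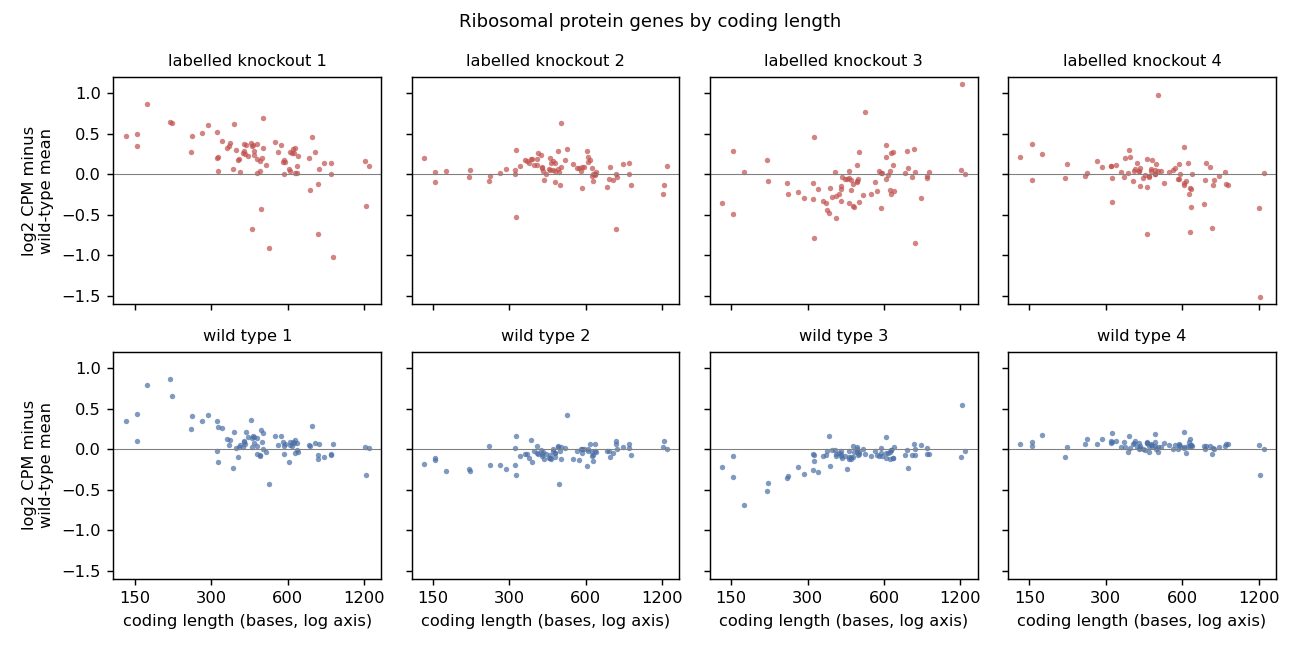
Each panel is 1 library and each point a member, placed by its coding length (bases, log axis) and its log2 CPM minus the mean of the 4 wild types. Short members lie high in labelled knockout 1 and wild type 1 (medians 0.51 and 0.41 under 300 bases) and low in wild type 3 (-0.34).

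Lists of other ribosome and translation genes gave no calls either (0 in each list, where 0.0183% of all genes were called and 52.9% lay above 0). Of 7 other cytosolic ribosomal protein genes, whose symbols the rule does not take, 4 had a log2 fold change above 0 and 3 below, with 0.08 for the stalk protein gene Rplp0 and -0.05 for Rpsa. Translation factors stood above 0 in 48 of 60 tested, with a median of 0.06, and the guanine exchange factor subunit Eif2b5 had 0.19. Ribosome assembly factors stood above 0 in 53 of 79, with a median of 0.03, among them Ltv1 (0.22), which helps to mature the small subunit, and the RNA polymerase subunit gene Polr1d (0.27). Regulators of ribosomal protein mRNA translation split 9 to 8, with 0.11 for Larp1, which binds such mRNAs at their 5′ end. Mitochondrial ribosomal protein genes stood above 0 in 62 of 77, with a median of 0.07, close to the 0.06 of the cytosolic members.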

How the data were processed

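RNA was measured in 8 adult testis libraries. The authors deposited raw counts per Ensembl gene, whole numbers with no normalization. Total RNA was extracted with TRIzol and made into libraries with a TruSeq kit, per the labels' protocols. Trimmomatic, STAR, featureCounts and DESeq2 with builds GRCm39 and mm39 are named, per the submitters' processing notes. Not given in the sources used here are the versions, annotation release, strand setting and handling of multi-mapping reads. Symbols were matched for 52073 identifiers and not for 4675. All 8 count columns had a sample (0 without one).

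Groups come from the genotype label. The members and gene lists were chosen with earlier results of these data known. filterByExpr (minimum count 10, minimum total 15) left 21805 genes, and a count of 0 allows up to 0.121 to 0.175 CPM (3 counts, 95% limit, counting error only). The groups were compared over all 8 libraries with the quasi-likelihood test of edgeR 4.0.16 (in R 4.3.3, with limma 3.58.1), TMM scaling, no covariates, and Benjamini-Hochberg adjustment over all genes at 0.05. Whether each library is a separate animal is not stated, and p-values then reflect only the spread among these libraries, which may be technical. Libraries were not duplicates: the chi-square per gene within a group was 4.59 or higher. Pair ratios used log2 CPM with a prior count of 0.5 and an exact permutation test, adjusted over 8 pairs. Group values are mean ± SD over 4 libraries.

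Near-identical transcripts of GENCODE M21 (GRCm38) were found with blastn 2.17.0, at 95% identity over 80% of the coding sequence. That annotation is not of the authors' build and served for names, lengths, overlaps and sequences, with no coordinates. The length of a gene is that of the protein-coding transcript with the longest coding part. Named genes are the pairs, any member called, the 5 smallest p in each direction, the 5 highest and 3 lowest members per kb and the 3 with the widest range among labelled knockouts. Copies, overlapping genes, short members, Rpl13a, Rpl19 and members of other lists were named after their values were seen. Alternatives were DESeq2 1.42.0, limma-voom, the replicate block, RLE factors, no filter on low counts, a minimum mean of 1 CPM, TMM without the members, other prior counts, other lengths, and leaving out each library. Adding copies and using coding length alone were chosen after seeing the data. Scripts were tested on simulated data.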

Additional observations from a re-analysis of the deposited data

Results flagged for a closer look

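In groups of 4, a value is listed here when its gap to the nearest other library is, as a share of the group's range, above Dixon's 95% critical value, which chance gives in about 1 in 20 groups. Rps6 in labelled knockouts was at 182 CPM in labelled knockout 1, against 140 to 146 CPM in the other 3. It was the only member of the 79 so placed in either group (1.27% in labelled knockouts, against 7.35% of all genes). For the pairs, the log2 ratio of Rpl7l1 to Rpl7 was -2.46 in wild type 1, against -2.66 to -2.62 in the other wild types. The log2 ratio of Rps27l to Rps27 was -1.77 in labelled knockout 1, against -1.42 to -1.36 in the other labelled knockouts.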

How the results depend on the processing

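Over all genes, 4 were called higher and 0 lower (lower genes with an unadjusted edgeR p under 0.05 numbered 390). Without the low-count filter the calls were 16 higher and 10 lower, and with DESeq2 26 and 21. Leaving out 1 library gave 3 to 23 higher and 0 to 24 lower. Labelled knockouts 1, 3 and 4 moved these counts: without them the calls were 9 and 24, 23 and 12, and 14 and 19. The number of members called was 0 in every setting except without labelled knockout 4, when it was 1 (range 0 to 1), Rps3a1. Its log2 fold change was -0.75 to -0.50 leaving out 1 library, and -0.19 with pseudogene copies added. The replicate numbers did not pair the libraries (correlations of same-numbered libraries 0.07, 0.04, -0.02 and 0.03, with 2 of 4 best with their own number), and a replicate block gave 4 higher, 0 lower and 0 members.

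For 29 named genes under 16 settings each, 420 of 464 fold changes kept direction and call, 43 in 15 genes turned sign and 1 (Rps3a1) newly passed. None of the 29 named genes passed in the main comparison, so a kept call is one that stayed absent. Leaving out 1 library gave log2 ranges of -0.17 to 0.024 for Rpl10l, -0.20 to 0.10 for Rpl10, -0.00072 to 0.27 for Rpl39, -0.61 to 0.29 for Rpl3l, -0.19 to 0.0040 for Rpl3, -0.14 to 0.067 for Rpl22l1, -0.0022 to 0.26 for Rpl36a, -0.12 to 0.059 for Rpl7l1, -0.061 to 0.074 for Rpl7, -0.11 to 0.20 for Rps27, -0.24 to 0.076 for Rps4x, -0.056 to 0.11 for Rps14, -0.093 to 0.059 for Rps7, -0.20 to 0.032 for Rpl24 and -0.20 to 0.33 for Rps10. The members' median spanned -0.019 to 0.10. With the replicate block Rpl3l was -0.12, Rpl7l1 -0.0084 and Rps14 -0.0011. With limma-voom they were -0.21, -0.0089 and -0.0019. Rpl7l1 was also -0.0097 without the filter, -0.0037 with a mean of at least 1 CPM and -0.0060 with copies added, and Rpl7 was 0.00022 with RLE factors and 0.0015 with DESeq2. The cause was not tested.

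The differences of log2 pair ratios ranged, leaving out 1 library, from -0.10 to 0.25 for Rpl10l, -0.17 to 0.24 for Rpl39l, -0.49 to 0.20 for Rpl3l, -0.19 to 0.11 for Rpl7l1 and -0.14 to 0.10 for Rps27l. In wild types the log2 level per length over the parent, with merged exons and with coding length alone, was 2.42 and 1.41 for Rpl10l (first 1.15), 4.65 and 3.86 for Rpl39l (3.46), -0.33 and -0.81 for Rpl22l1 (1.01), -2.63 and -2.92 for Rpl36al (-4.32), -2.97 and -2.41 for Rpl7l1 (-4.23) and -1.14 and -1.82 for Rps27l (-2.23). Rpl3l was -6.24 with merged exons (-7.22). Of the 5 highest members 2, and of the 3 lowest 2, were retained under either length. The members' share of counts remained close between the groups. Without mitochondrially encoded genes it averaged 1.269% in labelled knockouts and 1.263% in wild types. Without the 50 genes with most counts the means were 1.38% and 1.371%. Depth limits Rpl3l, Rpl24, Rps10 and Rpl36al, at 6 to 37 counts in labelled knockout 4.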
